A study of Mus musculus with 4 samples.

Results

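Genes of the Bcl2 family, which decide whether a cell keeps its mitochondria intact or dies by apoptosis, were followed in infarcted mouse hearts with and without a reprogramming transgene. The members were 10 gene symbols, each read through the probe with the highest mean of the 4 arrays: the prosurvival genes Bcl2, Bcl2l1 and Mcl1, the pore-forming effectors Bax and Bak1, the BH3-only genes Bcl2l11, Bbc3 and Pmaip1, and the mitophagy receptors Bnip3 and Bnip3l. Of these, 9 had a named probe among 19505 named genes, and Bax was not analysed here. Each of the 9 had 1 probe, so the choice by mean level removed none. The set was selected on values of these same 4 arrays, the TTg-MI against Ctrl-MI differences being known, so the differences, intervals and counts of the members are a description and support nothing by themselves.

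RNA came from the whole hearts of 4 male mice and was read on Clariom S Mouse arrays. Both groups had the left coronary artery tied at 8 weeks of age, and hearts were taken 3 months later. The hearts are numbered as the replicates 1 and 2 of each group. The 2 Ctrl-MI hearts had the genotype Tcf21iCre/Tomato, and the 2 TTg-MI hearts the genotype Tcf21iCre/Tomato/MGTH2A. The Cre recombinase is thus under Tcf21, a gene of fibroblasts and epicardium, in controls as well, and the Tomato reporter is shared by both groups. MGTH2A is known in the field as 1 construct for Mef2c, Gata4, Tbx5 and Hand2, factors that can turn cultured fibroblasts into cells resembling heart muscle. The hearts were therefore models of fibroblast-directed expression in an organ made mostly of other cells. Mice with an ejection fraction over 45% at 2 days after infarction had been removed from the study. How and when the Cre was switched on was not given in the sources used here.

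In healthy cells Bcl2, Bcl-xL (from Bcl2l1) and Mcl1 hold Bax and Bak in check at the outer mitochondrial membrane. BH3-only proteins such as Bim (Bcl2l11), Puma (Bbc3) and Noxa (Pmaip1) bind the prosurvival proteins and release that hold, after which the effectors form pores, cytochrome c leaks out and caspases are activated. Bnip3 and Bnip3l (Nix) are relatives that mark mitochondria for removal by autophagy, and Bnip3 is a classical hypoxia gene of heart muscle.

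Promoter sequences were examined because several of these genes have well known regulators whose own RNA was measured. The windows are the 250 bases upstream of a transcription start in RefSeq on GRCm38.p6, written 5′ to 3′ on the strand of the gene in lower case. Of the 10 members, 8 had an entry, the others being Bnip3l and Pmaip1. Searched on both strands were GTAAACA, a forkhead (FoxO) site, ACGTG, the core of a hypoxia response element, TGACGT, the core of a cyclic AMP response element, and GGGCGG, a GC box. ACGTG and TGACGT overlap where TGACGT is followed by G, and CACGTG counts once on each strand. Capitals mark TGACGT in Bcl2 (chr1:106714291-106714540, minus strand), ACGTG on both strands in Bnip3 (chr7:138909507-138909756, minus strand), and GTAAACA in Bcl2l11 (chr2:128125788-128126037, plus strand). For Bbc3 30 bases around its GTAAACA, which lies on the opposite strand, are shown (chr7:16310082-16310111, plus strand), since that window lies downstream of another start of the gene.
Bcl2: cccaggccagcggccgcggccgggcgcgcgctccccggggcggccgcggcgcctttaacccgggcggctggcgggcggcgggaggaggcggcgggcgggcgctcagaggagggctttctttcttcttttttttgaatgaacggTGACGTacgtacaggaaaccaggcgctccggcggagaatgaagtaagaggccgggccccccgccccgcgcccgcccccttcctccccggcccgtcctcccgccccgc
Bnip3: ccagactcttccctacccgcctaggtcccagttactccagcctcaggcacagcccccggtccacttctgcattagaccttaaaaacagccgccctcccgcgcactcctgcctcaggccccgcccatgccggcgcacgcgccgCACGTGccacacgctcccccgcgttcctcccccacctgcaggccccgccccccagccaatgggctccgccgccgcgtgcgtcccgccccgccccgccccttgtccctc
Bcl2l11: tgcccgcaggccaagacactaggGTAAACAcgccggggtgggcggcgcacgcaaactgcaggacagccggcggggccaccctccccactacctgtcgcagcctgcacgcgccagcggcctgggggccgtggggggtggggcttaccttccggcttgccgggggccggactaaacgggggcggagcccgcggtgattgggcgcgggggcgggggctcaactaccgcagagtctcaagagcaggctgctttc
Bbc3: gtctggcgggttTGTTTACaaacaatgggg
The Bcl2 site began 107 bases before the start, and the palindromic Bnip3 site 108 bases before it. The forkhead match of Bcl2l11 began 227 bases and that of Bbc3 167 bases before its start. Among 32851 promoter windows of this length, GTAAACA was present in 3.17%, ACGTG in 16.6%, TGACGT in 6.47% and GGGCGG in 32.7%. The Bcl2 window also held 7 GC boxes, the Bnip3 window 6 and the Bcl2l11 window 3. ACGTG was also found 2 times in the Bax window and 2 times in another of the 3 Bbc3 windows, and the other Bcl2l11 window held no GTAAACA. A match is a description of the letters and does not show that a factor binds there.

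The arrays had medians of 6.55 to 6.62 log2 units and lower quartiles of 5.41 to 5.48, under which a probe was not shown to be above background. Ctrl-MI heart 1 stood furthest from the TTg-MI arrays, with correlations over probes of 0.982 and 0.977, while Ctrl-MI heart 2 correlated at 0.991 and 0.989 with them and at 0.987 with its own group. The heart muscle genes Myh6, Tnnt2 and Actc1 stood between 19.42 and 19.91 on all arrays, as bright as nearly any probe. The atrial genes Sln, Myl7 and Myl4 stood at 7.90, 5.61 and 7.70 on Ctrl-MI heart 2 and at 10.44 or more elsewhere. The atrial markers Nppa (19.92 and 19.90) and Stard10 (8.76 and 8.81) were alike in Ctrl-MI hearts 1 and 2. The 1 probe that limma called after Benjamini-Hochberg adjustment was the atrial gene Bmp10 (difference 6.75, adjusted p = 0.00489). It stood at 5.31 and 5.39 in Ctrl-MI hearts 1 and 2, and at 12.38 and 11.82 in TTg-MI hearts 1 and 2. All 9 measured fibroblast markers and all 9 measured macrophage markers had lower TTg-MI means. In such bulk tissue fewer cells of a type and less RNA per cell cannot be told apart.

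Bcl2, the founding inhibitor of apoptosis, was lower in TTg-MI. Its log2 value was 11.42 and 10.79 in Ctrl-MI hearts 1 and 2, and 9.31 and 9.35 in TTg-MI hearts 1 and 2; values of a pair are given in this order throughout. Both TTg-MI hearts lay below both Ctrl-MI hearts by at least 1.44 log2 units, which exceeds the 0.62 between the Ctrl-MI hearts and the 0.04 between the TTg-MI hearts. The means were 11.11 ± 0.44 and 9.33 ± 0.02 (log2, SD, n = 2 each). The difference, TTg-MI minus Ctrl-MI, was -1.77 (SE 0.24, 95% interval -2.37 to -1.18), which is 3.42-fold lower. Of all 22206 probes, 65, or 0.293%, were lower by at least as much.

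Bcl2l1, which encodes Bcl-xL, was split by 1 heart. It stood at 9.65 and 9.30 on the Ctrl-MI arrays and at 7.96 and 9.73 on the TTg-MI arrays. The TTg-MI hearts thus held both the lowest and the highest value of the 4. The difference of -0.63 (SE 0.56, 95% interval -2.03 to 0.77) was smaller than the 1.77 between the TTg-MI hearts, and it became 0.25 when TTg-MI heart 1 was dropped or -1.51 when TTg-MI heart 2 was.

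Mcl1, a short-lived prosurvival protein needed by heart muscle, stood at 14.23 and 14.00 in Ctrl-MI and at 13.58 and 14.01 in TTg-MI. TTg-MI heart 2 matched Ctrl-MI heart 2, so the groups overlapped. The difference was -0.32 (SE 0.21, 95% interval -0.83 to 0.19), and -0.11 without TTg-MI heart 1.

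Bak1, the measured effector, was level across the hearts. Its values were 7.49 and 7.54 in Ctrl-MI and 7.58 and 7.50 in TTg-MI, a range of 0.08 over the 4 arrays. The difference of 0.02 had an SE of 0.15 and a 95% interval of -0.35 to 0.39.

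Bcl2l11, the gene of the BH3-only protein Bim, was higher in TTg-MI, opposite to Bcl2. It stood at 6.73 and 6.93 in Ctrl-MI and at 7.15 and 7.36 in TTg-MI. The groups did not overlap, but the nearest hearts were 0.22 apart, about as far as the 0.20 and 0.21 within the groups. The difference was 0.43 (SE 0.17, 95% interval 0.00096 to 0.85), which is 1.34-fold higher.

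Bbc3, the gene of Puma and a classical p53 target, was spread most among the controls, at 8.35 on Ctrl-MI heart 1 and 7.42 on Ctrl-MI heart 2. The TTg-MI hearts, at 7.78 and 7.66, lay between them. The difference was -0.17 (SE 0.32), and it became 0.29 when Ctrl-MI heart 1 was dropped or -0.63 when Ctrl-MI heart 2 was. Pmaip1, the gene of Noxa, lay near the lower quartile of every array, at 5.61 and 5.52 in Ctrl-MI and 5.36 and 5.50 in TTg-MI, with a difference of -0.13 (SE 0.16). It was under the lower quartile on 1 of the 4 arrays and gave little room for a decrease to be seen.

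Both mitophagy receptors were slightly lower in TTg-MI. Bnip3 stood at 12.82 and 12.99 in Ctrl-MI and at 12.75 and 12.62 in TTg-MI. These groups were separate by 0.07 log2 units, less than the 0.16 and 0.13 within them, and the difference was -0.22 (SE 0.16, 95% interval -0.62 to 0.18). Bnip3l stood at 11.49 and 11.36 in Ctrl-MI and at 10.97 and 11.14 in TTg-MI. Its groups were separate by 0.22, and the difference was -0.37 (SE 0.16, 95% interval -0.77 to 0.03), which is 1.29-fold lower.

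**Figure D1:**
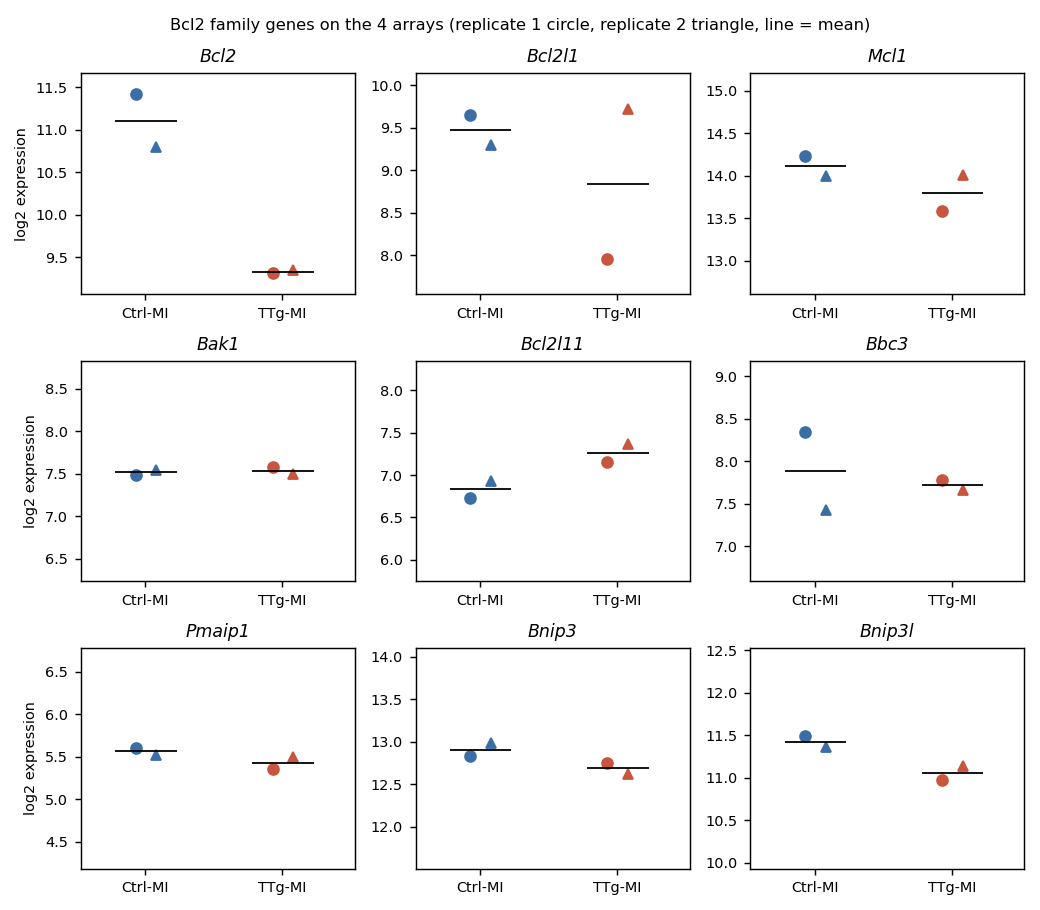
The log2 expression of 9 Bcl2 family genes is plotted for each of the 4 hearts, Ctrl-MI in blue and TTg-MI in red, with circles for replicate 1, triangles for replicate 2 and lines for group means; every panel spans the same height in log2 units. Bcl2 shows both TTg-MI hearts, at 9.31 and 9.35, far below both controls, while for Bcl2l1 only TTg-MI heart 1, at 7.96, is low.

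By mean, 7 of the 9 measured members were lower in TTg-MI, against 47.7% of all probes, with a median difference of -0.22 against 0.01 over all probes. The groups were apart with TTg-MI lower for 4 members (Bcl2, Bnip3, Bnip3l and Pmaip1), against 18.7% of all probes, and with TTg-MI higher for 1 (Bcl2l11), against 19.4%. Limma with Benjamini-Hochberg adjustment over all 22206 probes called 0 members at 0.05, and 0.00450% of all probes. At an unadjusted p under 0.05 limma counted 1 member lower (Bcl2), against 5.07% of all probes, and 1 higher (Bcl2l11), against 3.18%, together 8.25% of all probes. Since the members were picked with this contrast known, nothing is read from these counts. Without Ctrl-MI heart 2 the adjusted count was 1 (Bcl2), where 332 of all probes were called.

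**Figure D2:**
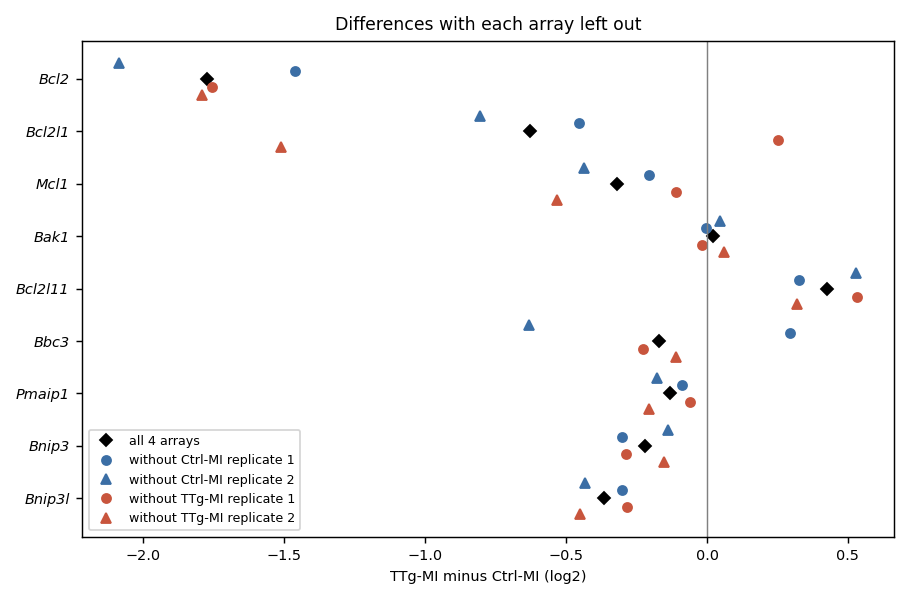
The TTg-MI minus Ctrl-MI difference in log2 units is plotted for each member with all 4 arrays (black) and with each array left out (blue for a Ctrl-MI array, red for a TTg-MI array; circles for replicate 1, triangles for replicate 2). Bcl2 stays between -2.09 and -1.46, whereas Bcl2l1 ranges from -1.51 to 0.25 and Bbc3 from -0.63 to 0.29.

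The balance of prosurvival genes against the effector Bak1 was compared on each array as a log2 ratio, of which only the change between groups is read. The Bcl2 to Bak1 ratio was 3.92 and 3.25 in the Ctrl-MI hearts and 1.74 and 1.85 in the TTg-MI hearts. The groups were separate, and the ratio was lower by a factor of 3.47 in TTg-MI, nearly all of it from Bcl2. The Bcl2l1 to Bak1 ratio was 2.16 and 1.75 in Ctrl-MI and 0.38 and 2.23 in TTg-MI, and its change of -0.65 turned to 0.27 without TTg-MI heart 1. The Mcl1 to Bak1 ratio was 6.74 and 6.46 in Ctrl-MI and 6.01 and 6.51 in TTg-MI, so these groups overlapped; its change of -0.34 ranged from -0.59 to -0.09, the ends reached by dropping TTg-MI heart 2 or 1, and was -0.20 when Ctrl-MI heart 1 was dropped.

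Bcl2 is also abundant in lymphocytes and other non-muscle cells, and marker signals of some such cells moved with it while others did not. Summed over their linear values, the 9 fibroblast markers stood at 19.24 to 19.86 log2 units in Ctrl-MI and 18.46 to 18.96 in TTg-MI. The 9 macrophage markers stood at 13.79 to 15.14 and 12.20 to 13.23. The fibroblast sum rests mostly on Dcn and Gsn, which differed by -0.74 and -1.02, and the macrophage sum on Lyz2 (-1.98). Every other marker of these lists also had a lower TTg-MI mean. Both sums were lower in each TTg-MI heart than in either control, and the part of either cell type in the Bcl2 difference was not tested. The 5 B and plasma cell markers stood at 9.19 to 9.31 and 7.95 to 7.96. This sum follows Jchain, the joining chain of secreted antibodies, which differed by -2.63, while the other 4 markers (Cd79a, Cd79b, Ms4a1 and Mzb1) lay between 5.27 and 6.23 on all arrays. The 6 T cell markers stood at 8.37 in both Ctrl-MI hearts and 8.24 to 8.27 in TTg-MI. Each lay between 5.19 and 6.34 on all arrays, near background. Cd3d and Cd3g were under the lower quartile on 2 arrays, and Cd3e and Cd2 on 1. By mean Cd3d (0.01) and Cd8a (0.09) were higher in TTg-MI and the other T cell markers lower, so little can be read from this sum. The part of lymphocytes in the Bcl2 difference was not tested. The sum of the 10 ventricular muscle markers overlapped, at 22.16 to 22.37 in Ctrl-MI and 22.29 in TTg-MI, and rests on probes close to the highest value an array gave. Within it Myh7, the slow myosin of the stressed heart, differed by -1.46 (SE 0.24), the calcium release channel Ryr2 by 0.89 (SE 0.32) and Tnnt2 by 0.21 (SE 0.19), each with groups apart. The smooth muscle sum stood at 13.26 to 13.86 in Ctrl-MI and 14.71 to 14.77 in TTg-MI and follows Acta2 alone (difference 1.26), while Tagln differed by -0.79, Myh11 by -0.14, Cnn1 by 0.11 and Mylk by 0.12. The endothelial sum overlapped, at 16.67 to 16.79 in Ctrl-MI and 16.60 to 16.85 in TTg-MI. Within it Pecam1 differed by -0.56, Kdr by 0.64 and Tie1 by 0.69, each with groups apart, while groups overlapped for Cdh5, Emcn and Fabp4. The neutrophil sum also overlapped, at 7.90 to 7.99 in Ctrl-MI and 7.89 to 8.13 in TTg-MI. Its markers lay between 4.66 and 6.35 on all arrays, near background, with S100a8 under the lower quartile on all 4, so little can be read from it. The pericyte sum was higher in TTg-MI, at 15.83 to 15.97 against 14.69 to 15.68 in Ctrl-MI. It follows mostly Abcc9 (difference 1.19), while Kcnj8 differed by 0.31, Rgs5 by 0.10, Vtn by -0.15 and Pdgfrb by -0.34. No marker of the fibroblast, macrophage, B cell or T cell lists was under the lower quartile on all 4 arrays.

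**Figure D3:**
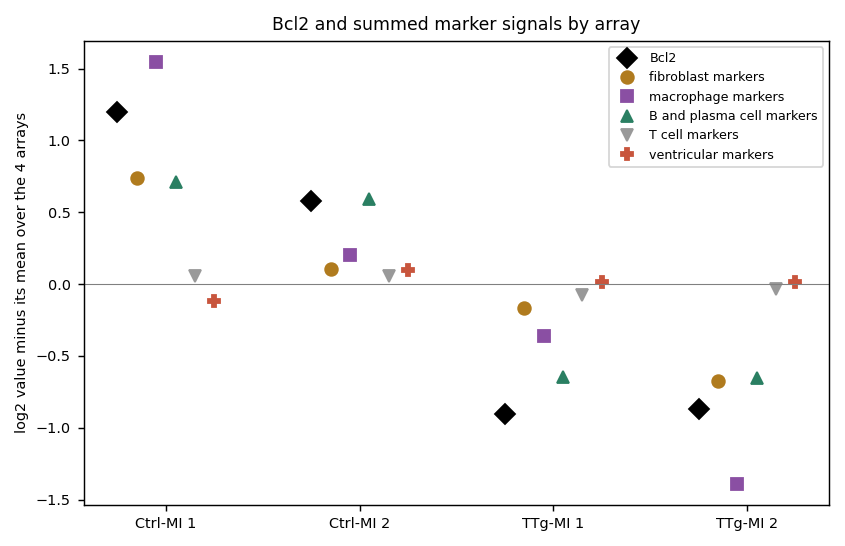
The log2 value of Bcl2 and the log2 of the summed marker signals of 5 cell types are plotted for each of the 4 hearts, each centred on its own mean over the hearts. Bcl2, the fibroblast, the macrophage and the B and plasma cell sums lie above 0 in both Ctrl-MI hearts and below 0 in both TTg-MI hearts. The T cell sum has the same signs, but it stays near 0, as do the ventricular markers.

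The remaining family genes were less separated than Bcl2. Of all probes, 5.07% were lower and 3.18% higher at an unadjusted limma p under 0.05, to be set beside the count of each list below. Among 5 other prosurvival genes the median difference was -0.12. It was -0.02 without TTg-MI heart 2 or with dim probes removed, -0.22 without TTg-MI heart 1 and -0.28 without Ctrl-MI heart 2. In this list limma counted 0 higher and 2 lower at that limit. These were Bcl2a1b (6.18 and 6.08 in Ctrl-MI, 5.49 and 5.39 in TTg-MI; difference -0.69, SE 0.15) and Bcl2a1d (5.70 and 5.59, then 5.20 and 4.84; difference -0.62, SE 0.18), copies of the myeloid gene of A1. Both were close to background, with 3 of their 4 TTg-MI values under the lower quartile of the array, and Bcl2a1d missed the limit without Ctrl-MI heart 1 or TTg-MI heart 2. The third copy, Bcl2a1a, differed by -0.02, and because the copies are nearly identical in sequence their probes may read each other. Bcl2l2, the gene of Bcl-w, differed by 0.14 (SE 0.17).

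Of 5 other BH3-only genes 0 had an unadjusted limma p under 0.05, and 4 had lower means, with differences from -0.24 for Bid, which links death receptors to mitochondria, to 0.17 for Hrk. Bad, which is silenced by survival signalling, differed by -0.22 (SE 0.20). Of 8 other or divergent relatives 0 passed the same limit, with 4 lower and 4 higher. Bok, an effector that can act without Bax and Bak, stood at 6.85 and 6.75 in Ctrl-MI and 7.05 and 7.07 in TTg-MI, and Bnipl differed by 0.37 (SE 0.26). Limma with Benjamini-Hochberg adjustment called 0 of these 18 genes, for which adjusted p ran from 0.546 upwards.

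**Figure D4:**
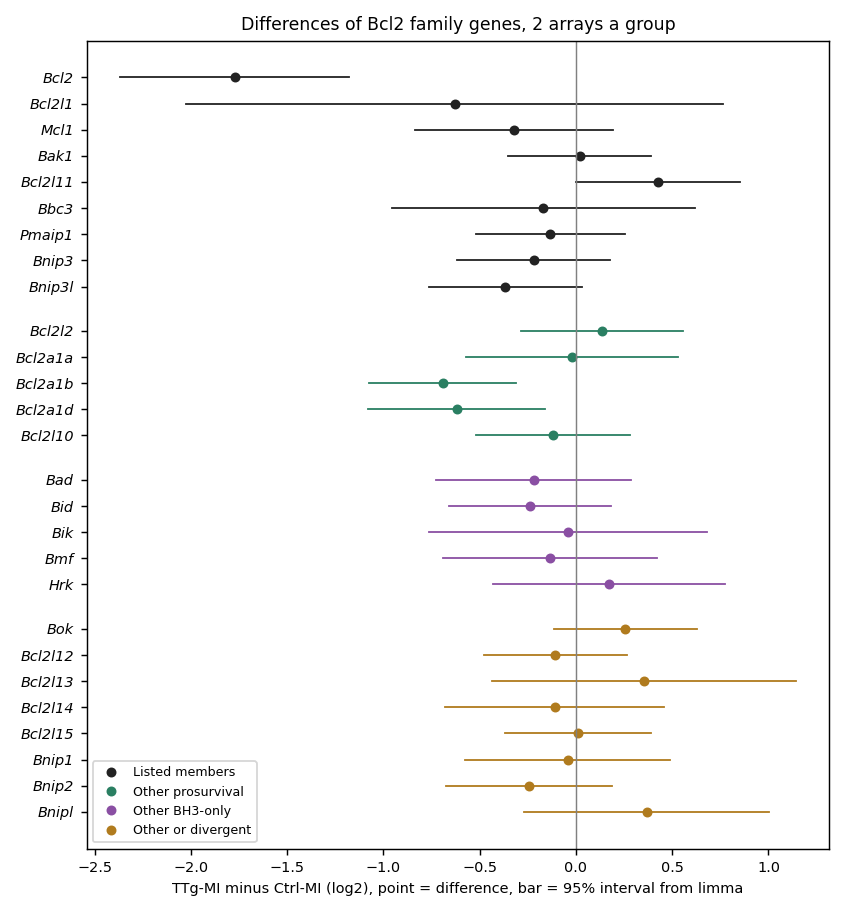
TTg-MI minus Ctrl-MI differences in log2 units are plotted as points with 95% intervals from limma for the 9 members and 18 other family genes, 2 arrays a group. Bcl2, at -1.77, lies furthest from 0, followed by Bcl2a1b at -0.69, and Bcl2l11 at 0.43 is the highest point.

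Downstream of the mitochondria lies the death machinery. Of 10 genes of the apoptosome, caspases and proteins released from mitochondria, 5 were lower and 5 higher, with 0 at an unadjusted limma p under 0.05. Cycs, which encodes cytochrome c, stood at 17.45 and 17.96 in Ctrl-MI and 18.19 and 18.16 in TTg-MI (difference 0.47, SE 0.21), and the initiator caspase Casp9 differed by -0.53 (SE 0.25). Without Ctrl-MI heart 2, Cycs and the flavoprotein Aifm1 had an unadjusted limma p under 0.05. Of 8 inhibitors of apoptosis, Birc3, an NF-kappaB target, was the 1 under that limit, at 10.51 and 9.33 in Ctrl-MI and 9.07 and 8.61 in TTg-MI (difference -1.08, SE 0.41). Of the 4 fits that left out an array, only the 1 without Ctrl-MI heart 2 kept it under the limit, and quantile normalization also took it above. Naip6, the next by p, differed by -0.23 (SE 0.20). Of 9 death receptor genes 0 were under it; Casp8, the initiator caspase, differed by -0.99 (SE 0.42), and Tnfrsf1a, the main TNF receptor, by -0.81 (SE 0.38). Both had Ctrl-MI heart 1 as the highest heart, at 11.23 and 11.24, about 1.1 log2 units above Ctrl-MI heart 2. Without Ctrl-MI heart 2 limma called Tnfrsf1a after adjustment.

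Bnip3 and Bnip3l act in mitophagy by binding ubiquitin-like proteins of the growing autophagosome. Of 11 measured genes of this process, 3 were lower and 0 higher at an unadjusted limma p under 0.05, against 5.07% and 3.18% of all probes. The median difference was -0.13. Gabarapl1, one such ubiquitin-like protein, stood at 12.24 and 12.25 in Ctrl-MI and at 11.31 and 11.77 in TTg-MI (difference -0.70, SE 0.20). Gabarap stood at 15.54 and 15.53 and then at 15.10 and 14.92 (difference -0.52, SE 0.16). In both genes the controls nearly coincided and both TTg-MI hearts were below them. The remaining gene was the cargo receptor Sqstm1, at -0.67 (SE 0.26). With the intensity trend and robust prior only Gabarapl1 stayed under the limit. Without TTg-MI heart 1 only Gabarap stayed under the limit, and the list median was -0.03, against -0.28 without Ctrl-MI heart 1.

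The list of HIF subunits and hypoxia target genes had the lowest median of the 12 lists set beside the members. Bnip3 is itself a hypoxia target. Of 13 measured, 11 had a lower TTg-MI mean, against 47.7% of all probes, and 7 had groups apart with TTg-MI lower, against 18.7%. At an unadjusted limma p under 0.05, 4 were lower and 0 higher, against 5.07% and 3.18% of all probes. The median difference was -0.48, against 0.01 over all probes. Hif1a, the oxygen-regulated subunit, stood at 12.33 and 11.99 in Ctrl-MI and at 11.27 and 10.78 in TTg-MI (difference -1.13, SE 0.23). P4ha1, a collagen prolyl hydroxylase, stood at 13.15 and 12.45 and then at 11.50 and 11.82 (difference -1.14, SE 0.27). The others under the limit were Ankrd37 (-0.74, SE 0.21) and the glycolytic regulator Pfkfb3 (-0.75, SE 0.25). Groups overlapped for Epas1 (0.23), Egln3 (0.12), Vegfa (-0.12), Pdk1 (-0.48), Slc2a1 (-0.53) and Ddit4 (-0.73). Bnip3, with the ACGTG pair printed above, differed by -0.22 against this list's -0.48. The part of Hif1a in the Bnip3 difference was not tested. P4ha1 is also a matrix gene, and the fibroblast marker sum was lower in the same hearts; its part in these differences was not tested. The number under the limit was 7 without Ctrl-MI heart 2, where P4ha1 and Slc2a1 passed after adjustment, and 2 without TTg-MI heart 1.

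Among 10 measured p53 genes the 1 under the unadjusted limit was Cdkn1a, the cell cycle inhibitor p21. It stood at 12.81 and 12.64 in Ctrl-MI and at 11.00 and 9.26 in TTg-MI, a difference of -2.59 (SE 0.54) or 6.03-fold lower, with the TTg-MI hearts far apart. The other p53 targets, the members Bbc3 and Pmaip1 among them, did not share a difference of that size; Zmat3 differed by -0.31 (SE 0.17) and Mdm2 by 0.16 (SE 0.16). Without Ctrl-MI heart 2 the number under the limit was 3.

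FoxO factors activate Bcl2l11 and Bbc3 in other settings. Foxo3 stood at 10.26 and 10.18 in Ctrl-MI and at 10.46 and 10.93 in TTg-MI (difference 0.47, SE 0.20). The other FoxO factors differed by -0.11 (Foxo1), 0.0036 (Foxo4) and 0.28 (Foxo6). Bcl2l11, with the forkhead letters printed above in 1 of its windows, differed in the same direction as Foxo3. Bbc3, with them in 1 of its 3 windows, had a difference of -0.17. Whether FoxO factors act on either gene in these hearts was not tested. Of the 10 FoxO genes, 1 was lower and 0 higher at an unadjusted limma p under 0.05. This was Txnip, a thioredoxin inhibitor responsive to glucose, at -0.90 (SE 0.22). The list's median of -0.05 was above 0 in 3 of 4 fits that left out an array, reaching 0.21 without Ctrl-MI heart 2.

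Bcl2 and its relatives also bind calcium channels of the endoplasmic reticulum and mitochondria. Of 8 such partners, Itpr2, the main inositol trisphosphate receptor of heart muscle, was the 1 under the unadjusted limit. It stood at 9.60 and 10.06 in Ctrl-MI and at 10.95 and 10.35 in TTg-MI (difference 0.82, SE 0.27), opposite in direction to Bcl2. The channel Vdac1 differed by 0.48 (SE 0.22). Itpr2 missed the limit without Ctrl-MI heart 1, where the list's median of 0.09 was -0.11, or without TTg-MI heart 1. Without Ctrl-MI heart 2, Itpr2, Vdac1 and Vdac3 were under it. Enzymes that tag Mcl1 for destruction or spare it numbered 7 measured, with 1 higher at an unadjusted limma p under 0.05. This was the ubiquitin ligase Huwe1, also called Mule, at 7.41 and 7.85 in Ctrl-MI and 8.13 and 8.14 in TTg-MI (difference 0.50, SE 0.20). Of the 4 fits that left out an array, only the 1 without Ctrl-MI heart 2 kept it under the limit, and median centring, a filter on dim probes and the intensity trend also took it above. The ligase subunit Fbxw7 differed by 1.20 (SE 0.50), with Ctrl-MI heart 1 lowest at 8.01, and limma called it after adjustment without Ctrl-MI heart 2.

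**Figure D5:**
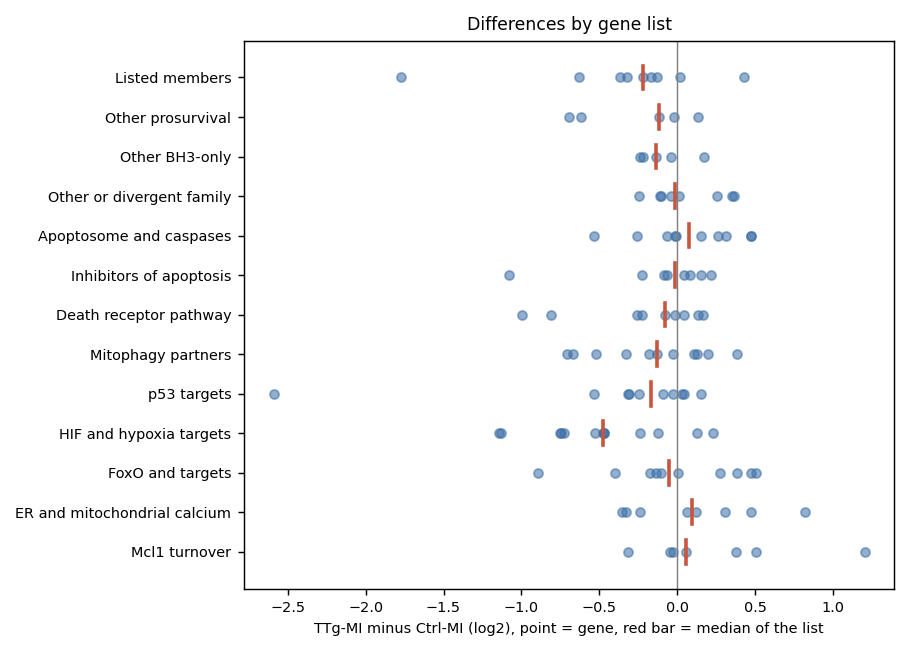
TTg-MI minus Ctrl-MI differences in log2 units are plotted for each measured gene of the 9 members and of 12 pathway lists, with red bars at list medians. The HIF and hypoxia list has the lowest median, at -0.48, and the single points furthest to the left are Cdkn1a at -2.59 and Bcl2 at -1.77.

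Across the 12 lists, 12 of 104 genes were lower and 2 higher at an unadjusted limma p under 0.05, against 5.07% and 3.18% of all probes. The groups were apart with TTg-MI lower for 30 of the 104 and higher for 12, against 18.7% and 19.4% of probes. Since the lists were chosen with earlier results of these data known, nothing is read from these counts. Limma with Benjamini-Hochberg adjustment over all probes called 0, the smallest adjusted p being 0.546. Without Ctrl-MI heart 2 the counts were 20 lower and 11 higher, against 7.73% and 7.02% of all probes in that fit, with 4 called after adjustment, among 332 of 22206 probes.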

How the data were processed

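Total RNA of 4 whole hearts was labelled with biotin and hybridised to Clariom S Mouse arrays. Per the submitters' processing notes the tool was Affymetrix Expression Console 1.4, and the deposited values were taken as log2 intensities because they ran from about 4 to 20 on each array. Summarization, normalization and annotation version are not given in the sources used here. Of 22206 probes, 19572 had 1 gene symbol in the platform annotation and 2634 were unnamed here. The values were used as deposited in limma 3.58.1 with R 4.3.3 (lmFit, eBayes, two-sided, Benjamini-Hochberg over all probes at 0.05), with 2 residual and 3.56 prior degrees of freedom. An exact permutation of 2 against 2 arrays cannot give a p below 0.333. The series calls the hearts independent biological replicates, and their small number sets the precision.

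The members and the 12 pathway lists were chosen with earlier results of these data known. From each pathway list the 2 genes with the smallest p were named. Others were named only as further copies or FoxO factors, lone passes, range ends or genes with overlapping groups, chosen after their values were seen. The fit was tested on simulated data. The planned ratios to Bax could not be formed. Results were recomputed with median centring, quantile normalization, dim probes removed, another variance prior, a replicate block, the mean of a symbol's probes, an adjusted threshold of 0.1 and leaving out each array; without 1 array, its group's lone array is assumed to vary like the other group.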

Additional observations from a re-analysis of the deposited data

How the results depend on the processing

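The block, the variance prior, the filter and the mean of probes leave a member's difference as it is by construction, so only normalization and the arrays used could move it. Bcl2 differed by -1.75 with quantile normalization, by -1.76 with median centring and by -2.09 to -1.46 with single arrays left out. Signs changed for Bcl2l1, Bbc3 and Bak1 when single arrays were left out. Of 120 list medians recomputed, 14 changed sign, all in lists with medians between -0.08 and 0.09. The 120 include the block, the variance prior and the mean of probes, which left every list median as it was and could change no sign.

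The probes called over the whole table numbered 1 with all arrays, 4 with an intensity trend and robust prior, and between 1 and 332 with single arrays left out. With the replicate number as a block they numbered 7, with 0 members among them; the labels give no reason to pair the numbers, and the deviations of same-numbered arrays correlated at 0.163 over probes. Members called after adjustment ranged from 0 to 1 with single arrays left out. Members at an unadjusted p under 0.05 numbered 2 with all arrays, and 1 with median centring, a filter on dim probes or the intensity trend, which left Bcl2 alone. They ranged from 1 to 3 with single arrays left out. The change in the Bcl2 to Bak1 ratio ranged from -2.13 to -1.46, that of Bcl2l1 to Bak1 from -1.57 to 0.27 and that of Mcl1 to Bak1 from -0.59 to -0.09 with single arrays left out. The 95% intervals, from -0.35 to 0.39 for Bak1 and from -2.03 to 0.77 for Bcl2l1, show how far 2 hearts a group settle a difference, and dim genes such as Pmaip1 have little room to fall.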

Other observations

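The genes whose pattern over the 4 hearts was nearest to that of Bcl2 were sought among 10051 named genes of at least median level, by the distance between values centred on each gene's mean. The 5 nearest were Cmklr1, a chemerin receptor of macrophages and other innate cells (distance 0.192), Cd300ld, a myeloid surface receptor (0.248), Cpxm2, a secreted carboxypeptidase-like protein (0.313), Mmp3, a stromal matrix protease (0.317), and Cmip (0.345). Cmklr1 stood at 11.45 and 10.84 in Ctrl-MI and at 9.51 and 9.61 in TTg-MI. Their differences ran from -1.47 for Cmip to -1.90 for Mmp3. These likenesses rest on 4 hearts and are a description.

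The same search for Bnip3 gave Cdk4, a cell cycle kinase (distance 0.00803), Gng12, a G protein subunit (0.0141), Ccdc186 (0.0231), Polr1c, an RNA polymerase subunit (0.0249), and Hspa13, a chaperone (0.0251). Their differences lay between -0.24 and -0.20, close to the spread within the groups, where many genes of the array look alike.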
